A study of Rattus norvegicus with 35 samples.

Results

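The C-type lectin gene Reg3b and 7 genes of the signalling route that joins the receptor subunit gp130 to the transcription factor STAT3 were followed in the pressure-loaded rat heart. The members were taken by name: the probes whose symbol in the probe annotation is Reg3b, Lbp, Stat3, Socs3, Osmr, Il6st, Il6r or Lifr. Each of the 8 genes had 1 probe, so that 8 of the 13337 genes with a named probe are described (22523 probes in all, of which 13793 carry a symbol). The members were chosen by measured values, namely the ligated minus sham differences that some of them showed in these same data. Their values within a day are therefore given as a description with standard errors and without a test.

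Left ventricles came from male Wistar rats whose abdominal aorta had been ligated, an operation that makes the heart pump against a raised pressure, or from sham-operated males of the same strain. Hearts were taken 1, 6 and 42 days after the operation, and each group held 6 animals with 1 array each, except for 5 ligated animals at day 6, making 35 arrays in all. The labels give no age and no genetic change, and ventricles were not sorted, so that a different number of cells of a type and a different amount of RNA per cell cannot be told apart. All arrays of a day lay on 1 BeadChip and were normalised together, so that the day cannot be told apart from its BeadChip, and levels are compared only within a day.

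Cytokines of the interleukin-6 family bind a receptor chain of their own, such as the interleukin-6 receptor (Il6r), the oncostatin M receptor (Osmr) or the leukaemia inhibitory factor receptor (Lifr), and share gp130, the product of Il6st. The bound complex activates Janus kinases, which phosphorylate STAT3. The dimer then enters the nucleus and switches on acute phase genes together with its own inhibitor Socs3. In the loaded heart the route is known for protecting myocytes and for driving their growth. In the mouse heart Reg3b, also called pancreatitis-associated protein, is known to be released by myocytes exposed to oncostatin M and to attract macrophages. Lbp encodes the plasma protein that hands bacterial lipopolysaccharide to Cd14.

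STAT dimers bind the palindrome TTCNNNGAA, which reads alike on both strands. It was searched in the window from 250 bases before to 50 bases after each start site in the RefSeq promoter table (build GRCr8), in which 7 of the 8 members have a window. Lbp is not among them. The 9 bases occurred in the window of 1 member, Reg3b, and in 2970 of all 33469 windows (8.87%). The windows of Socs3, Il6st, Il6r and Lifr lie wholly inside the RefSeq span of the gene, away from its outer end. The Lifr window, for example, begins at base 57963139 and the gene at base 57951787. For these genes the absence of the motif says nothing about the sequence at the outer end of the gene. The windows of Reg3b, of its neighbour and relative Reg3g, of Timp1 and of the hepcidin gene Hamp are shown because these 4 genes had the highest ligated-over-sham ratios of the route's measured genes at days 1 and 6. The motif stands in 2 of the 4, with the same 9 letters. Capitals mark the motif. The Reg3b window is chr4:112419526-112419825 on the plus strand with the motif at bases -129 to -121 from the start site, the Reg3g window is chr4:112484689-112484988 on the minus strand without it, the Timp1 window is chrX:3771073-3771372 on the minus strand without it, and the Hamp window is chr1:95300222-95300521 on the minus strand with the motif at bases -117 to -109.
Reg3b: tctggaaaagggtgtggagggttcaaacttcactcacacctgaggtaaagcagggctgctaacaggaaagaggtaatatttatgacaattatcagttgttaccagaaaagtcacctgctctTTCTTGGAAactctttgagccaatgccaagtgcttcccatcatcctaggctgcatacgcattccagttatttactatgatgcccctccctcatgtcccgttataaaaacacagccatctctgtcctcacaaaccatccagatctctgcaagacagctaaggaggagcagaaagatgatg
Reg3g: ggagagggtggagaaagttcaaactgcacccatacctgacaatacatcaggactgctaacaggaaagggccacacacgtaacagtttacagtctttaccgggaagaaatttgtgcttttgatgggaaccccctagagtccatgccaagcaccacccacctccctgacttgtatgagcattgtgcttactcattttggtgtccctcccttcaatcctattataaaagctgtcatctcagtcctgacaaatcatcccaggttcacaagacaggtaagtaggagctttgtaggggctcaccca
Timp1: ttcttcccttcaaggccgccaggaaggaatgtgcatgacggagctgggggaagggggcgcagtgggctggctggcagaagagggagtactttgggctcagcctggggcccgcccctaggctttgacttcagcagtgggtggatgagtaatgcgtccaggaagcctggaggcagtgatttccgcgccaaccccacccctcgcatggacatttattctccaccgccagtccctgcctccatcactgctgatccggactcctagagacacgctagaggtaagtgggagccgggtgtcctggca
Hamp: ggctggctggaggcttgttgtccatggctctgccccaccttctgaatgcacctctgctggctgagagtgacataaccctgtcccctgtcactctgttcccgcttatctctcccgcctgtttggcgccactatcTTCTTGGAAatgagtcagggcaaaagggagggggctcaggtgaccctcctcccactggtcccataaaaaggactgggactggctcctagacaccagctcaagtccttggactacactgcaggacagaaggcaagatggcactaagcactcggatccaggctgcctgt
A match of letters is a description and shows no binding. Among the other genes of the route that have a probe and a window, the motif stood in 14 of 65, and in 2 of the 13 that rose on any day (Hamp and Icam1). A gene was counted here if any of its windows held the motif, so that these counts cannot be set against the 8.87% of single windows.

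Reg3b was far higher after ligation on days 1 and 6, and the 6-day value was the largest positive log2 difference of all 8492 probes tested on that day. At day 1 the normalised log2 level of Reg3b had a lowest value of 10.66, a median of 11.76 and a highest value of 13.45 in ligated ventricles, against 6.13, 8.23 and 9.40 in sham ventricles. The groups did not overlap, although both were wide. The ligated arrays spanned 6.92-fold and the sham arrays 9.59-fold. The difference was 4.10 ± 0.62 on the log2 scale (SE, n = 6 each), a 17.1-fold ratio. At day 6 the 5 ligated ventricles stood at 14.17, 14.95, 12.43, 14.24 and 13.66, against a lowest value of 6.43, a median of 7.70 and a highest value of 8.76 in sham ventricles. The groups were separated by more than the whole range of either, and ligated replicate 3 was the lowest of its group. The difference was 6.28 ± 0.46 on the log2 scale (n = 5 and 6), or 77.7-fold. In scanner units before any correction, the Reg3b probe read between 5445 and 41464 in ligated ventricles and between 174 and 512 in sham ventricles of that day.

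At day 42 the separation was gone. Reg3b had a lowest value of 7.73, a median of 9.93 and a highest value of 11.04 in ligated ventricles, against 7.41, 8.17 and 8.97 in sham ventricles. The ligated animals were divided, with replicates 1, 3, 4 and 6 above every sham array and replicates 2 and 5 within the sham range. The difference was 1.40 ± 0.48 on the log2 scale (n = 6 each), a 2.64-fold ratio. The ligated group spanned 9.90-fold and the sham group 2.96-fold. Set against day 6, the ligation effect on Reg3b at day 42 differed by -4.88 ± 0.83, and set against day 1 by -2.70 ± 0.81. The effect at day 6 minus that at day 1 was 2.18 ± 0.83. These contrasts are built from the within-day differences that led to the choice of Reg3b, and they are given without a test. In the same fit of 8986 probes, 8.62% were called for day 42 minus day 1, 7.52% for day 42 minus day 6 and 0.812% for day 6 minus day 1, from which nothing is read about Reg3b.

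**Figure D1:**
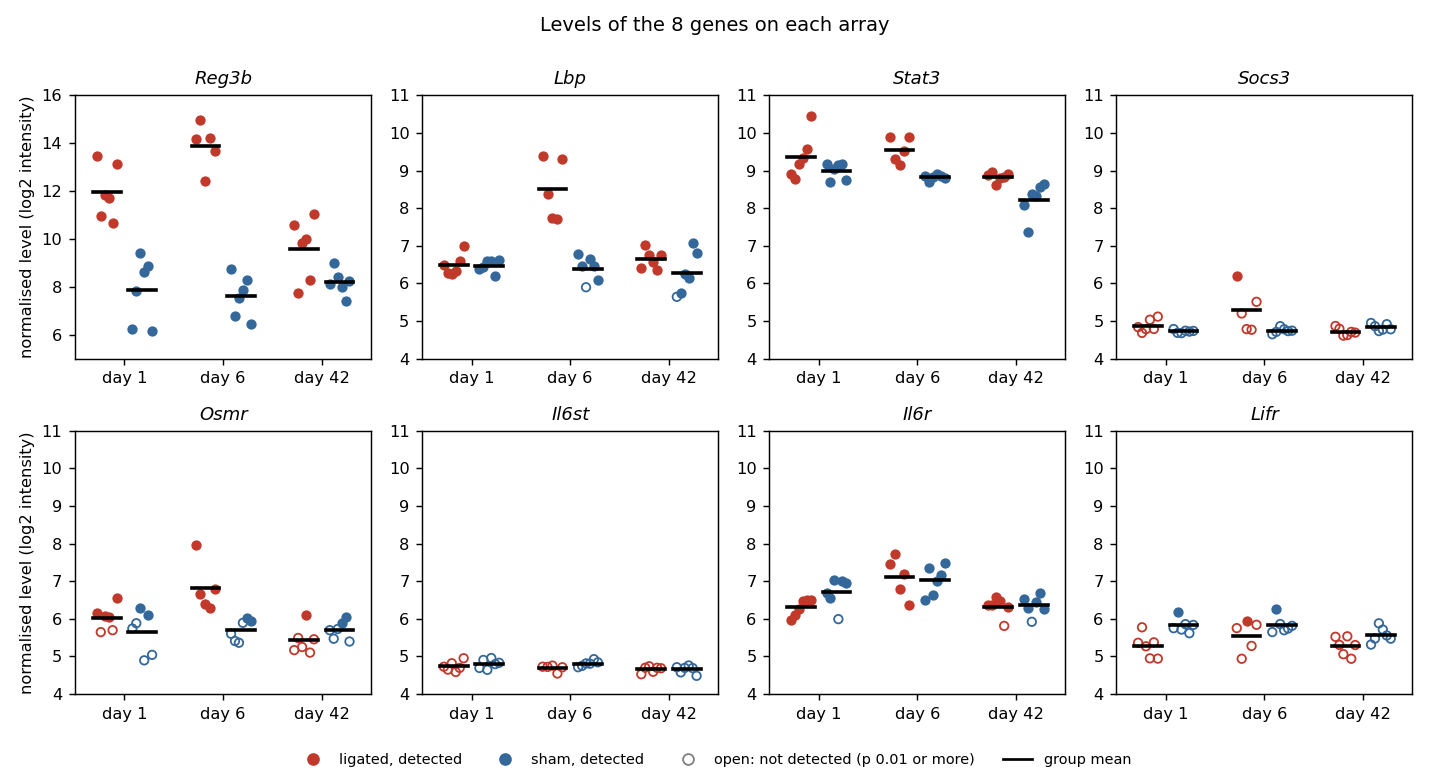
Normalised log2 intensity of the 8 genes on each of the 35 arrays (Reg3b has a wider vertical scale than the other panels), with ligated arrays in red to the left of sham arrays in blue on each day, and a line at each group mean. Filled points are detected at a detection p under 0.01 and open points are not. The 2 groups of Reg3b stand apart at days 1 and 6, those of Lbp, Stat3 and Osmr at day 6 alone, and Il6st is open on every array.

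The second acute phase product of the members, Lbp, differed between operations at day 6 and had nearly the same mean in both groups at day 1. At day 1 its log2 level ran from 6.24 over a median of 6.41 to 6.99 in ligated ventricles, and from 6.19 over 6.51 to 6.61 in sham ventricles. The difference was 0.02 ± 0.13 and the ranges overlapped almost fully. At day 6 the ligated ventricles stood at 9.39, 8.37, 7.75, 7.72 and 9.32, against a lowest value of 5.90, a median of 6.46 and a highest value of 6.77 in sham ventricles. All 5 ligated arrays were above all 6 sham arrays, with replicates 1 and 5 the highest and replicates 3 and 4 the lowest. The difference was 2.12 ± 0.31 (n = 5 and 6), a 4.34-fold ratio, and 1.40 when the background was not subtracted. At day 42 the values overlapped again, at 6.36, 6.66 and 7.01 (lowest, median and highest) in ligated ventricles and 5.64, 6.20 and 7.07 in sham ventricles, with a difference of 0.36 ± 0.22.

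The ligation effect on Lbp at day 6 minus that at day 1 was 2.10 ± 0.35, and at day 42 minus day 6 it was -1.75 ± 0.35. Lbp at day 1 was within 1 standard error of 0 on the day on which Reg3b stood 17.1-fold apart. Lbp was above detection in 5 of 5 ligated ventricles and 5 of 6 sham ones at day 6, so that the low values of the sham group are close to the lower limit of the array.

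The transducer of the route, Stat3, was detected on all 35 arrays and differed by less than Reg3b on each day. At day 1 its log2 level was 8.79, 9.25 and 10.46 (lowest, median and highest) in ligated ventricles, and 8.70, 9.09 and 9.19 in sham ventricles. The ranges overlapped, and ligated replicate 6 lay alone above 10. The difference was 0.37 ± 0.23 (n = 6 each) with that animal and 0.15 without it. At day 6 the ligated ventricles stood at 9.89, 9.31, 9.14, 9.53 and 9.89, against 8.69, 8.83 and 8.90 (lowest, median and highest) in sham ventricles. The sham animals were tightly grouped, with a range of 1.15-fold, and every ligated array was above them. The difference was 0.73 ± 0.14 (n = 5 and 6), a 1.66-fold ratio.

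At day 42 it was the ligated group of Stat3 that was narrow. Its level was 8.62, 8.85 and 8.97 (lowest, median and highest) in ligated ventricles, against 7.36, 8.36 and 8.63 in sham ventricles. The groups met at 1 pair of arrays, the lowest ligated and the highest sham one. The difference was 0.61 ± 0.18 (n = 6 each), a 1.52-fold ratio, and 0.44 without sham replicate 2. Under median scaling in place of quantile normalisation it was 0.070. On that day the ligated arrays were dimmer before normalisation, with an upper quartile of the scanner intensity of 206 ± 36.9 in ligated arrays and 293 ± 30.5 in sham arrays (mean ± SD, n = 6 each). The part of this gap in the Stat3 value was not tested beyond those fits.

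Socs3, the feedback inhibitor that STAT3 induces, was below detection on nearly all arrays. The exception was ligated replicate 1 at day 6, with a log2 level of 6.19 and a scanner intensity of 197. The other ligated ventricles of that day had 5.20, 4.78, 4.77 and 5.51, and the sham ventricles had 4.64, 4.73 and 4.86 (lowest, median and highest), all of them not detected. A fold cannot be given for Socs3 on any day, since on each day at least 1 group had no array above detection and the lower bound was under 1 where it could be computed.

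Among the receptor chains, Osmr, which binds oncostatin M, stood apart at day 6. Its ligated ventricles had log2 levels of 7.97, 6.66, 6.39, 6.29 and 6.78, against 5.36, 5.75 and 6.03 (lowest, median and highest) in sham ventricles. It was above detection in 5 of 5 ligated ventricles and 2 of 6 sham ones, and replicate 1 was the highest by more than 1 log2 unit. The groups did not overlap. The difference was 1.12 ± 0.26 (n = 5 and 6), a 2.17-fold ratio that rests on sham values near the detection limit, and it was 0.80 without ligated replicate 1 and 0.55 without background subtraction. Osmr came into the set of measured probes at day 6 through the ligated group, in which it was high. At day 1 Osmr had 5.64, 6.07 and 6.55 (lowest, median and highest) in ligated ventricles and 4.89, 5.81 and 6.28 in sham ventricles, which overlapped, with a difference of 0.37 ± 0.24. At day 42 it was above detection in 1 of 6 ligated ventricles and 2 of 6 sham ones and was not among the probes tested.

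Il6r, the chain that binds interleukin-6, did not separate the groups on any day. At day 1 it had 5.98, 6.37 and 6.50 (lowest, median and highest) in ligated ventricles, against 5.99, 6.81 and 7.03 in sham ventricles. Sham replicate 4 lay with the ligated arrays and the other 5 sham arrays lay above all of them. The difference was -0.40 ± 0.17 (n = 6 each), and -0.54 without sham replicate 4. The differences at days 6 and 42 were 0.09 ± 0.25 and -0.04 ± 0.15.

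Lifr and Il6st gave little to measure. Lifr was above detection in 0 of 6 ligated ventricles and 1 of 6 sham ones at day 1, with log2 levels of 4.94, 5.31 and 5.77 (lowest, median and highest) in ligated ventricles and 5.61, 5.79 and 6.18 in sham ventricles. The ligated-over-sham ratio had an upper bound of 1.03 there, with undetected ligated arrays set to no less than the lowest detected level. A lower level after ligation is therefore not shown. Lifr was above detection in 1 of 5 ligated ventricles and 1 of 6 sham ones at day 6 and on 0 of 12 arrays at day 42. The probe of Il6st, which encodes gp130 itself, was detected on 0 of 35 arrays, with group means of the log2 level between 4.65 and 4.81. This limits what the probe can show and does not show that gp130 RNA was missing from the ventricle. Osmr and Lifr are neighbours on chromosome 2 with no protein-coding gene between them in RefSeq, and Il6st and Il6r lie on the same chromosome.

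**Figure D2:**
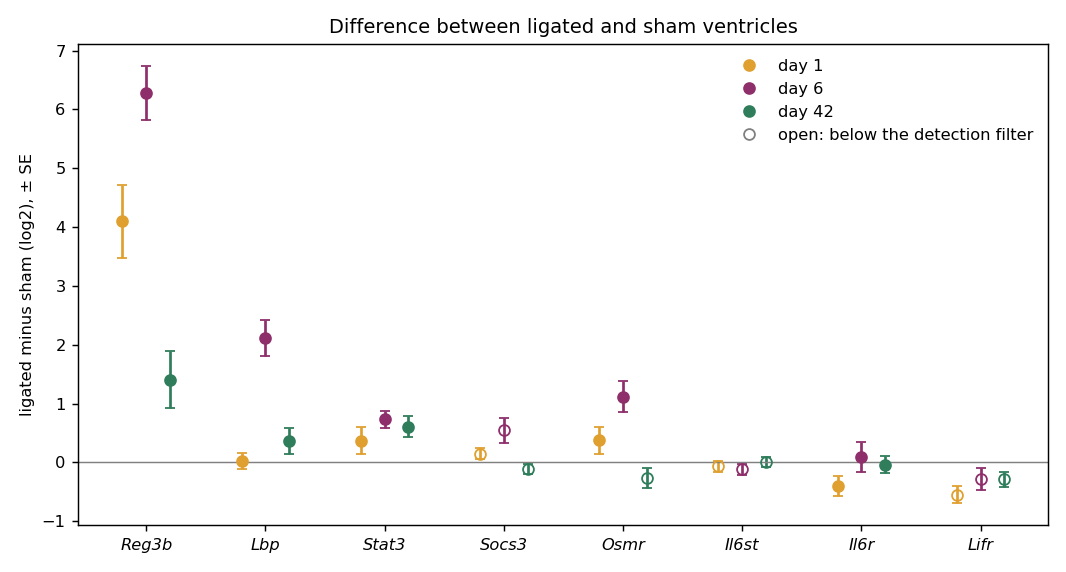
Ligated minus sham difference of the normalised log2 level for the 8 genes at days 1, 6 and 42, with bars of 1 standard error; open circles are probes below the detection filter of that day. Reg3b lies at 4.10, 6.28 and 1.40, Lbp lies at 0.02, 2.12 and 0.36, and Osmr at 0.37 and 1.12 at days 1 and 6. The values of Il6r are -0.40, 0.09 and -0.04.

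Counted over the members, 5 of the 8 were above the detection filter at day 1, 5 at day 6 and 4 at day 42. At day 1, 1 of the 5 (Reg3b) had all ligated arrays above all sham arrays, beside 4.63% of the 8236 probes tested. At day 6 this held for 4 of the 5 (Reg3b, Lbp, Stat3 and Osmr), beside 4.22% of 8492 probes. At day 42 it held for 0 of the 4, beside 3.22% of 8351 probes. The median log2 difference of the measured members was 0.37, 1.12 and 0.48 on the 3 days, beside -0.03, -0.04 and -0.01 for all probes tested. Nothing is read from these counts, since the within-day differences were what led to the members.

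The rest of the route was taken from lists of genes set by role, 97 in all, of which 81 had a probe. At day 1, 13 of the 46 measured genes rose and 3 fell in limma at an adjusted p under 0.05, beside 13.1% of all probes that rose and 15.6% that fell (28.8% in all). At day 6, 8 of 45 rose and 0 fell, beside 5.39% and 5.89% (11.3% in all). At day 42, 2 of 43 rose and 5 fell, beside 7.30% and 7.69% (15.0% in all). Under median scaling 1 rose and 24 fell on that day, beside 81 rises and 4629 falls among all 8351 probes. Nothing is read about the route from the counts under median scaling. The median log2 difference of the measured route genes was 0.13, 0.25 and -0.05 on the 3 days.

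The cytokines that start the route were mostly below detection. Il6 was detected on 1 of the 5 ligated arrays at day 6 and on no other array, Lif and Clcf1 on none, and Osm, which encodes oncostatin M, on none at day 1, on 0 of 5 ligated and 1 of 6 sham arrays at day 6, and on 1 of 6 ligated and 1 of 6 sham arrays at day 42. Cntf, the ciliary neurotrophic factor, was detected throughout and had differences of 0.25 ± 0.12, 0.07 ± 0.12 and 0.17 ± 0.11 at days 1, 6 and 42, none of which passed in limma (adjusted p = 0.122, 0.720 and 0.320). Ctf1, which encodes the cardiac cytokine cardiotrophin 1, fell at day 42, with a difference of -0.81 ± 0.19 (limma, adjusted p = 0.0162), and was above detection in 1 of 6 ligated ventricles and 5 of 6 sham ones. Ctf1 met the detection filter through the sham group, in which it was high, so that its call is not independent of that filter. With array brightness in the fit its value was -0.47 (adjusted p = 0.662). Il11, Il27 and Ebi3 were not analysed here. Of the 2 other receptor chains that were measured, Il11ra1 and Il10rb, neither passed on any day.

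Of the kinases downstream of gp130, Jak2 rose at day 1 by 0.82 ± 0.22 (adjusted p = 0.0148) and at day 6 by 1.14 ± 0.31 (adjusted p = 0.0340), and Jak1 fell at day 1 by 0.41 ± 0.10 (adjusted p = 0.00834) and at day 42 by 0.85 ± 0.25 (adjusted p = 0.0366). The day 1 call of Jak2 was lost with array brightness in the fit (0.63, adjusted p = 0.0916) and that of Jak1 under median scaling (-0.17, adjusted p = 0.399). The day 6 call of Jak2 was lost without ligated replicate 2 or 5 or without any 1 of the 6 sham arrays (adjusted p between 0.0515 and 0.0790). Jak1 at day 42 lost its call without ligated replicate 2, 3 or 5 or sham replicate 1, 2, 3 or 4 (adjusted p between 0.0639 and 0.0805), and its sign turned with brightness in the fit, to 0.15. Stat2, a partner in interferon signalling, rose at day 6 by 0.66 ± 0.13 (adjusted p = 0.00936), and its groups did not overlap. It was above detection in 5 of 5 ligated ventricles and 1 of 6 sham ones. Stat2 met the detection filter through the ligated group, in which it was high, so that its call is not independent of that filter. The call was lost under median scaling (limma, adjusted p = 0.141).

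Of the inhibitors of the route, 2 of 13 rose and 2 fell at day 1, beside 28.8% of all probes called in either direction. At day 6, 0 of 12 passed, and 0 of 12 at day 42, beside 11.3% and 15.0% of all probes. Whether the days differ in these counts was not tested. Ptpn6, a phosphatase found mainly in blood cells, rose by 1.06 ± 0.24 (adjusted p = 0.00636) and Ptpn2, a phosphatase that acts on Janus kinases and STATs, by 0.45 ± 0.14 (adjusted p = 0.0295). Socs2, a relative of Socs3 that restrains growth hormone signalling, fell by 0.77 ± 0.14 (adjusted p = 0.00275), and its sham arrays all lay above its ligated ones. Cish, another member of the Socs family, fell by 0.54 ± 0.17 (adjusted p = 0.0292) and was above detection in 1 of 6 ligated ventricles and 4 of 6 sham ones. Cish met the detection filter mostly through the sham group, in which it was high. The calls of Cish and Ptpn2 were lost without ligated replicate 1, 3 or 4 (adjusted p between 0.0539 and 0.0703 for Cish), and that of Ptpn2 likewise without sham replicate 5 or 6 (adjusted p between 0.0551 and 0.0673 over its 5 arrays). In the fit that compares the ligation effect between days, none of these 4 genes passed in any pair of days.

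Of the genes of transcription and survival that respond to STAT3, 4 of 14 rose and 0 fell at day 1 (median log2 difference of the 14, 0.08). Of all probes tested that day, 13.1% rose and 15.6% fell (28.8% in all). The 4 that rose were Myc (1.85 ± 0.29, adjusted p = 0.00123), a growth-promoting transcription factor with no overlap between groups, Junb (1.24 ± 0.27, adjusted p = 0.00572), the adhesion molecule Icam1 (0.71 ± 0.20, adjusted p = 0.0196), and Fos. Fos was above detection in 5 of 6 ligated ventricles and 0 of 6 sham ones and was at least 1.65-fold higher after ligation (limma, adjusted p = 0.00244). It came into the set of measured probes at day 1 through the ligated group alone, in which it was high, so that its call is not independent of the detection filter. At day 6, 1 of 15 rose, beside 5.39% of all probes, and it was again Junb (1.57 ± 0.42, limma, adjusted p = 0.0325). At day 42, Vegfa, the vascular growth factor, rose by 1.00 ± 0.16 (adjusted p = 0.00257) with no overlap. On that day 1 of the 13 measured genes rose and 3 fell, beside 7.30% and 7.69% of all probes. Those that fell were Mcl1, which protects cells from death (-0.66 ± 0.13, adjusted p = 0.00784), Hif1a, the sensor of low oxygen (-0.75 ± 0.19, adjusted p = 0.0210), and the repressor Bcl6 (-0.93 ± 0.28, limma, adjusted p = 0.0400).

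Several of these calls were narrow. Junb at day 6 lost its call without ligated replicate 2 or 5 or sham replicate 1, 2, 5 or 6 (adjusted p between 0.0524 and 0.0730), and Bcl6 at day 42 without ligated replicate 2, 3, 5 or 6 or sham replicate 1, 3, 4 or 6 (adjusted p between 0.0505 and 0.0882). Icam1 was at the threshold with array brightness in the fit (0.75, adjusted p = 0.05015). With brightness in the fit the calls of Vegfa, Mcl1, Hif1a and Bcl6 at day 42 were lost (adjusted p = 0.232, 0.636, 0.455 and 0.645), with the same direction for each. The differences were then 1.02 for Vegfa, -0.75 for Hif1a and -0.75 for Bcl6, while that of Mcl1 was -0.32. The brightness fit left 3 calls among all 8351 probes at day 42, so that a call lost in it on that day is not particular to any gene named here.

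Among acute phase proteins, Timp1 and Hamp came nearest to Reg3b in size. Timp1, an inhibitor of matrix metalloproteinases, had log2 levels of 11.05, 12.87 and 13.55 (lowest, median and highest) in ligated ventricles at day 1, against 9.04, 9.41 and 9.73 in sham ventricles. The groups were far apart, and Timp1 rose by 3.24 ± 0.35 at day 1 (9.44-fold, adjusted p = 0.000247) and by 2.99 ± 0.43 at day 6 (7.97-fold, adjusted p = 0.00200). At day 42 it rose by 0.75 ± 0.20 (adjusted p = 0.0235), a call lost without sham replicate 1 or 3 (adjusted p = 0.0514 and 0.0518), under median scaling (0.23, adjusted p = 0.331) and with brightness in the fit (0.60, adjusted p = 0.5895). Hamp, the iron hormone hepcidin, whose gene in the liver is switched on by STAT3, rose by 2.67 ± 0.45 at day 1 (6.36-fold, adjusted p = 0.00170) and by 2.22 ± 0.46 at day 6 (4.65-fold, adjusted p = 0.0114). Its groups overlapped at day 1, where sham replicate 5 reached 11.16 and ligated replicate 2 stood at 11.10, and did not overlap at day 6.

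Of the other acute phase genes, most were below detection. Orm1, the plasma protein orosomucoid, rose at day 1 by 0.74 ± 0.20 (adjusted p = 0.0141) without overlap, and was above detection in 6 of 6 ligated ventricles and 3 of 6 sham ones. Its sham arrays alone would not have met the detection filter, so that its call is not independent of that filter. In all, 3 of the 5 measured acute phase genes rose at day 1, 2 of 4 at day 6 and 1 of 5 at day 42, and 0 fell on these days. Of all probes tested, 13.1%, 5.39% and 7.30% rose on the 3 days, and 15.6%, 5.89% and 7.69% fell. Nnmt, a methyltransferase of nicotinamide, was detected on all 35 arrays and did not pass, at 0.23 ± 0.17, 0.39 ± 0.21 and 0.43 ± 0.16 (limma, adjusted p = 0.335, 0.245 and 0.0805). Lcn2, an iron-binding defence protein, varied widely and did not pass, at 1.49 ± 1.03, 1.39 ± 1.32 and 0.53 ± 0.71 (limma, adjusted p = 0.294, 0.518 and 0.630). Of the 19 genes of the list with a probe, 10 were detected on no array at day 1, 7 on none at day 6 and 13 on none at day 42.

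**Figure D3:**
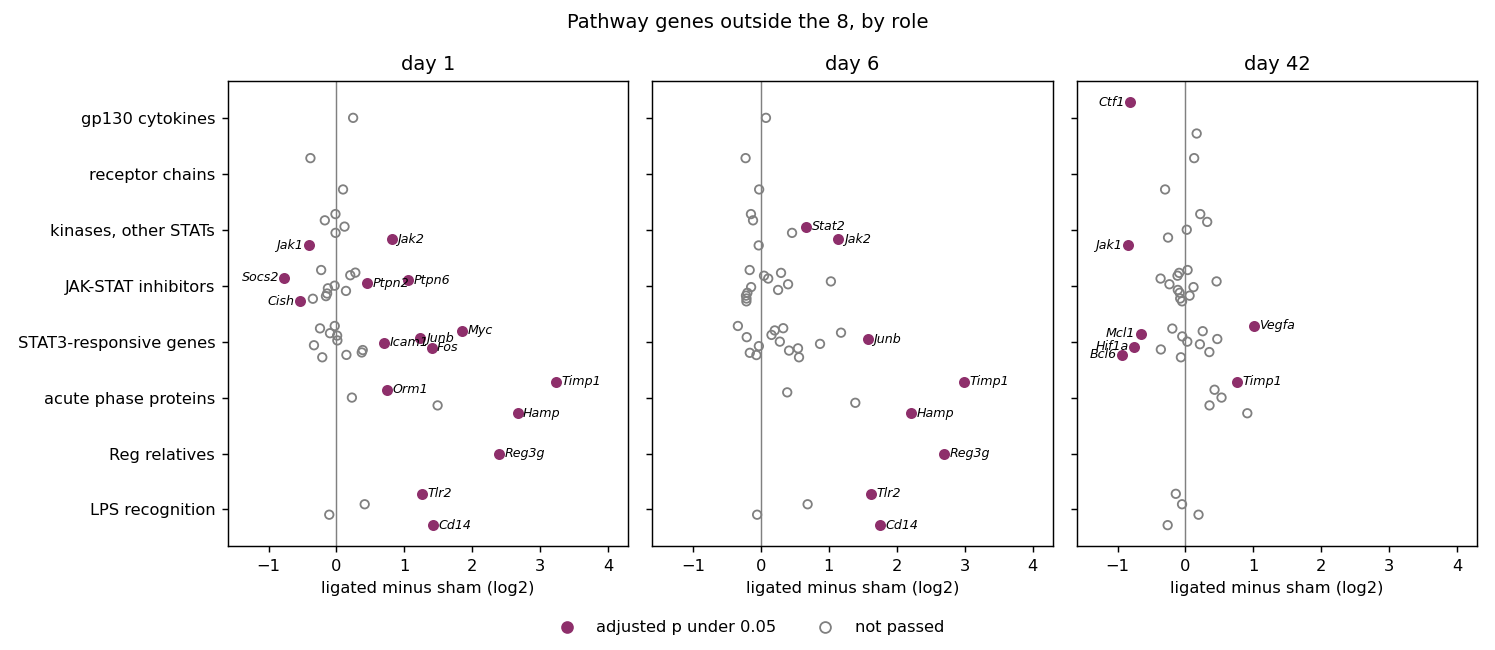
Ligated minus sham log2 differences of the genes of the route outside the 8 members, arranged by role, at days 1, 6 and 42; filled points passed in limma at an adjusted p under 0.05 and open points did not. The value drawn for Fos at day 1 is the fitted one, although it was detected on 0 of 6 sham arrays. At day 1 there are 13 rises and 3 falls, at day 6 there are 8 rises, and at day 42 there are 2 rises and 5 falls.

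Reg3g, a close relative of Reg3b, rose with it on both early days. RefSeq places Reg3b, Reg3a, Reg1a and Reg3g side by side on chromosome 4. Reg3g had log2 levels of 5.49, 7.67 and 10.41 (lowest, median and highest) in ligated ventricles at day 1, against 4.60, 5.01 and 6.61 in sham ventricles, and was above detection in 5 of 6 ligated ventricles and 2 of 6 sham ones. At day 6 the ligated ventricles had 11.09, 10.47, 9.01, 8.59 and 9.62, against 4.90, 7.09 and 9.19 in sham ventricles. The groups overlapped on both days, since sham animals differed widely among themselves. Reg3g rose by 2.40 ± 0.68 at day 1 (5.26-fold, adjusted p = 0.0196) and by 2.70 ± 0.73 at day 6 (6.48-fold, adjusted p = 0.0335), and at day 42 it was detected on 0 of 12 arrays. At day 1 it met the detection filter through the ligated group, in which it was high, so that this call is not independent of the filter. The ratio of that day rests on sham values that were mostly not detected. The day 1 call was lost with array brightness in the fit (1.84, adjusted p = 0.116), and the day 6 call without ligated replicate 1, 2 or 5 or sham replicate 2, 4 or 6 (adjusted p between 0.0583 and 0.0730).

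Of the remaining Reg genes, Reg1a was above detection in 2 of 6 ligated ventricles and 0 of 6 sham ones at day 1, and on 3 of 5 ligated and 0 of 6 sham arrays at day 6. Reg3a was above detection in 1 of 6 ligated ventricles and 0 of 6 sham ones at day 1, and on 2 of 5 ligated and 0 of 6 sham arrays at day 6. Neither entered the set tested. At day 1 ligated replicate 1 had the highest levels of Reg3b (13.45), Reg3g (10.41) and Reg1a (7.68), and ligated replicate 6 the second highest of all 3 and the highest of Reg3a (7.31). Whether the probes of these related genes pick up RNA of one another was not tested, since probe sequences were not used here. Reg4 was detected on 0 of 35 arrays.

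**Figure D4:**
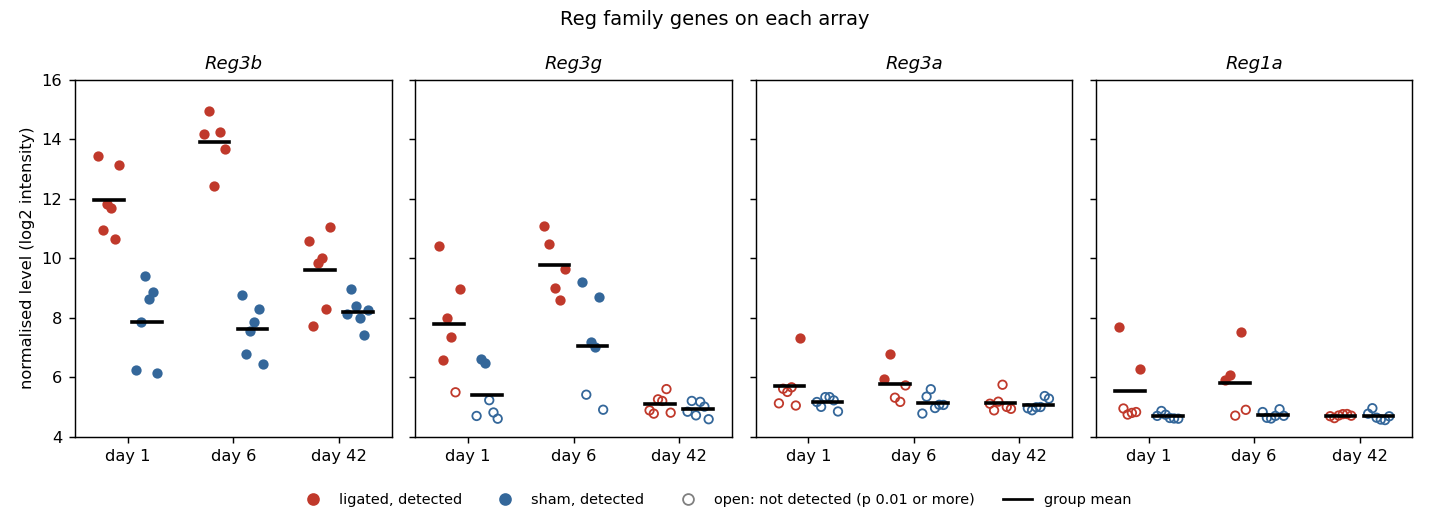
Normalised log2 intensity of Reg3b and of its neighbours Reg3g, Reg3a and Reg1a on each array, ligated (red) to the left of sham (blue) on each day, with filled points detected, open points not detected and a line at the group mean. Reg3b and Reg3g are higher after ligation at days 1 and 6, while Reg3a and Reg1a are detected on some ligated arrays and on no sham array.

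Of the 4 measured partners of Lbp, 2 rose at day 1 and the same 2 at day 6, beside 13.1% and 5.39% of all probes. Cd14, the coreceptor that takes up lipopolysaccharide from Lbp, rose by 1.42 ± 0.31 at day 1 (adjusted p = 0.00553) and by 1.75 ± 0.48 at day 6 (adjusted p = 0.0345). Tlr2, a receptor for bacterial lipoproteins, rose by 1.26 ± 0.28 at day 1 (adjusted p = 0.00609) and by 1.63 ± 0.41 at day 6 (adjusted p = 0.0247). Cd14 at day 6 lost its call without ligated replicate 1, 2 or 5 or sham replicate 1, 2, 4, 5 or 6 (adjusted p between 0.0572 and 0.0748), and Tlr2 without sham replicate 6 (adjusted p = 0.0539). Tlr4, the signalling receptor for lipopolysaccharide, was above detection in 0 of 5 ligated ventricles and 1 of 6 sham ones at day 6. At day 42, 0 of the 4 measured genes of this group passed, beside 15.0% of all probes.

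Most day 6 calls outside the members were lost under another scaling, filter or block, with the direction kept. Of the 8 genes that rose, Stat2, Jak2, Tlr2, Cd14, Reg3g and Junb lost their calls under median scaling (adjusted p = 0.141, 0.242, 0.133, 0.146, 0.108 and 0.188), while the calls of Timp1 and Hamp held. The differences themselves moved little, to 0.65, 1.09, 1.59, 1.70 and 2.57 for the first 5 of these genes in that order. With the replicate number as a block Stat2, Jak2, Tlr2, Cd14 and Junb did not pass (adjusted p = 0.0620, 0.0638, 0.0568, 0.0691 and 0.0691). Without the detection filter Jak2, Tlr2, Cd14, Reg3g and Junb did not pass (adjusted p between 0.0694 and 0.0942), nor did Reg3g with a trended robust prior (adjusted p = 0.0503). At day 1, Cish and Ptpn2 lost their calls with brightness in the fit (adjusted p = 0.166 and 0.161) and without the detection filter (adjusted p = 0.0667 and 0.0588), as did Reg3g and Icam1 without the filter (adjusted p = 0.0594 and 0.0502). In 1 fit over all 35 arrays Ptpn2 and Jak1 at day 1 and Timp1 and Bcl6 at day 42 did not pass (adjusted p = 0.0862, 0.114, 0.133 and 0.070). At day 42 the calls of Jak1 and Bcl6 were also lost without the detection filter (adjusted p = 0.0726 and 0.0806).

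Cell type markers were set beside these values. All 8 measured myocyte markers were among the probes tested on every day. On each day 1 of them rose and 0 fell, beside 13.1%, 5.39% and 7.30% of all probes that rose. At days 1 and 6 the 1 was Nppa (1.39 ± 0.39 and 2.86 ± 0.23, limma, adjusted p = 0.0189 and 2.6e-05), while Myh6 and Actc1 did not pass. The summed linear level of the 8 overlapped at day 1. It was 276881 to 313178 in ligated and 221695 to 262195 in sham ventricles at day 6, and 274884 to 312044 and 253525 to 274494 at day 42. This sum holds Nppa itself, whose mean log2 level at day 6 was 15.91 in ligated and 13.05 in sham ventricles. The other 7 myocyte markers did not pass on that day. The part of Nppa in the sums was not tested. Of 9 measured macrophage markers at day 6, 7 rose and 0 fell, beside 5.39% and 5.89% of all probes. Among the 7 were C1qc (1.37 ± 0.25, limma, adjusted p = 0.00704) and Mrc1 (1.66 ± 0.34, adjusted p = 0.0114). The summed linear level of the 9 macrophage genes ran from 7480 to 30927 in ligated ventricles and from 5687 to 7366 in sham ventricles of that day. At day 1, 2 of 8 rose (Tyrobp and Aif1), beside 13.1% of all probes that rose and 28.8% called in either direction. The sums overlapped, at 6527 to 11880 in ligated and 3782 to 8292 in sham ventricles. At day 42, 0 of 7 passed, beside 15.0% of all probes, with sums of 1909 to 5148 in ligated and 2822 to 5532 in sham ventricles. Of the 8 fibroblast markers 2 rose at day 6 and 0 fell, beside the same 5.39% and 5.89% of all probes. The 2 were Postn (3.39 ± 0.32, limma, adjusted p = 8.9e-05) and Col1a1 (1.09 ± 0.26, adjusted p = 0.0216). The summed level of the 8 was 58505 to 109251 in ligated and 50640 to 69874 in sham ventricles. Of the 2 measured smooth muscle and pericyte markers, Tagln rose on that day (1.18 ± 0.26, adjusted p = 0.0146) and Rgs5 did not pass. The part of myocytes, macrophages, fibroblasts or smooth muscle in the values of Lbp, Stat3, Osmr, Cd14 and Tlr2 was not tested.

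Reg3b is abundant in the injured pancreas, and pancreatic acinar markers were looked at for that reason. Of the 8 acinar genes with a probe, 0 entered the tested set on any day, 8 were detected on no array at day 6, and their summed level there was 264 to 309 in ligated and 250 to 306 in sham ventricles. Of the hepatocyte markers, Alb and Apoh were detected on no array of any day, while Tf (0.99 ± 0.26, adjusted p = 0.0281) and Ttr (0.69 ± 0.17, adjusted p = 0.0221) rose at day 6 and Ttr at day 42 (0.94 ± 0.15, adjusted p = 0.00206). The measured neutrophil marker S100a8 did not pass at day 6 (0.42 ± 0.55, adjusted p = 0.654), and S100a9 was detected on no array. The summed level of the 6 hepatocyte genes with a probe was 3780 to 10582 in ligated and 2825 to 4255 in sham ventricles at day 6, nearly all of it from Tf and Ttr. The part of liver or blood-borne RNA in the acute phase values was not tested.

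Whether animals with more Reg3b also had more of the other members was asked with each array's deviation from its group mean, a quantity that does not enter the differences between operations. Over the 35 arrays Osmr had the largest positive correlation with Reg3b (Pearson r = 0.30, Spearman rho = 0.30, two-sided permutation p = 0.135 and 0.119). After Benjamini-Hochberg adjustment over the 7 pairs the permutation p was 0.473 and 0.540, and without the 2 arrays farthest in Reg3b r was 0.26. Within days 1, 6 and 42 it was 0.57, 0.19 and -0.05. Lbp had r = 0.07 (rho = 0.11, permutation p = 0.675 and 0.524, both 0.90 or higher when adjusted) and Stat3 r = 0.09 (rho = 0.05, permutation p = 0.638 and 0.794), with 0.16 and 0.08 without the 2 farthest arrays. Within days 1, 6 and 42, r was 0.22, 0.34 and -0.31 for Lbp and 0.26, 0.29 and -0.31 for Stat3. Il6r had r = -0.01. Socs3 and Il6st had r of 0.10 and -0.02, but with 1 and 0 of 35 arrays above detection their deviations are those of background readings and say nothing about the genes, although both are counted in the adjustment. Lifr had r = -0.28 (rho = -0.27, permutation p = 0.130 and 0.154, adjusted 0.473 and 0.540), and it too was below detection on nearly all arrays. None of the 7 passed, which with 35 arrays does not show that the genes vary independently.

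**Figure D5:**
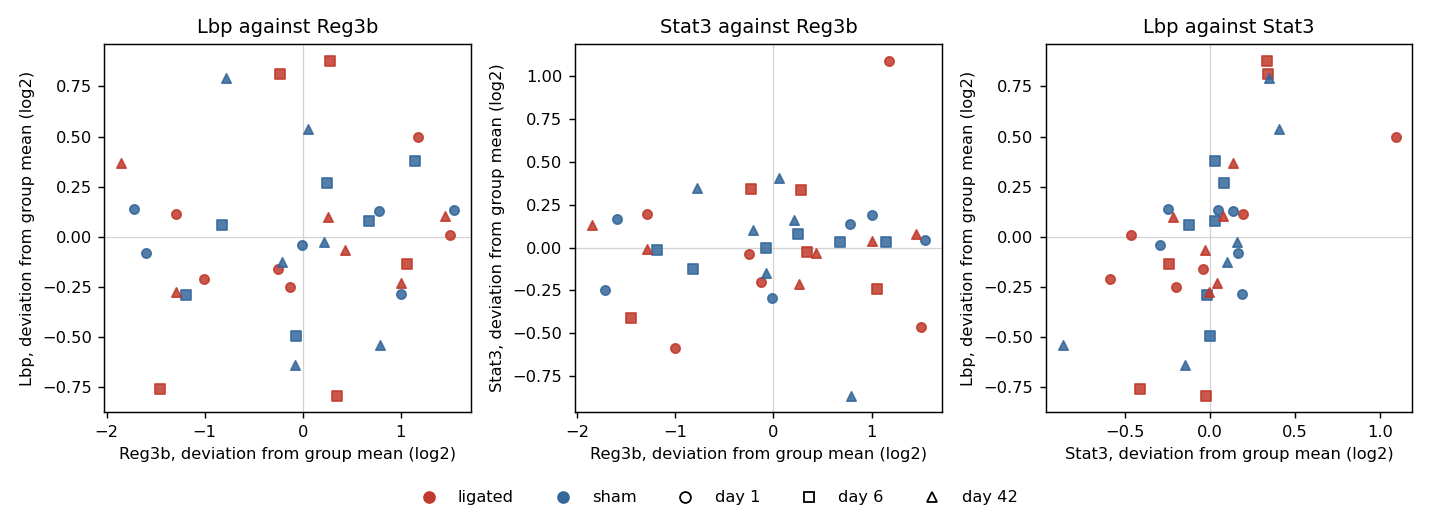
Deviation of each of the 35 arrays from its group mean (log2 units) for Lbp against Reg3b, Stat3 against Reg3b, and Lbp against Stat3, with colour for the operation and shape for the day. The first pair of panels shows scatter without a trend (r = 0.07 and 0.09), and the last shows Lbp and Stat3 with r = 0.59, a pair picked out after its values had been seen.

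Among the other measured members, Lbp and Stat3 had a Pearson r of 0.59 over the 35 arrays after removal of the group means. It was 0.64, 0.78 and 0.71 within days 1, 6 and 42, and 0.58 without ligated replicate 1 of day 6. For the other 5 pairs among Lbp, Stat3, Osmr and Il6r it lay between 0.01 and 0.41. Reg3g followed Reg3b with r = 0.61, at 0.74 and 0.79 within days 1 and 6, and -0.20 at day 42, when Reg3g was below detection. These pairs were picked with values in view and share libraries and normalisation, so that r is given as a description without p.

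The genes whose pattern was most like that of Reg3b, by Pearson r over the 35 arrays after subtraction of the sham mean of each day and among 5963 probes tested on all days, were Mybpc2 (0.90), a myosin-binding protein of fast muscle, Thbs4 (0.88), a thrombospondin, Chi3l1 (0.86), a chitinase-like protein, Postn (0.86), the matricellular protein periostin, Timp1 (0.85) and Vamp5 (0.85), a vesicle protein of muscle. This measure holds the difference between operations, which all of these genes share. Thbs4 was at 2.75 ± 0.51, 3.90 ± 0.36 and 1.58 ± 0.36 at days 1, 6 and 42, and Chi3l1 at 1.28 ± 0.33, 2.08 ± 0.31 and 0.36 ± 0.20, each with the highest value at day 6 as in Reg3b. Timp1 alone of the genes listed above did not have its highest value at day 6, at 3.24 ± 0.35 and 2.99 ± 0.43 at days 1 and 6. The genes were picked by this measure, so that a like course over the days is partly built in. With the group means removed the list was another one, led by Nabp1 (0.68), a single-stranded DNA-binding protein, and Tollip (0.66), an inhibitor of Toll-like receptor signalling, and followed by Cct2, Slc39a1, Eif4ebp1 and Dcun1d1 (0.52 to 0.53). The difference of Nabp1 was 0.66 ± 0.24, 0.70 ± 0.22 and -0.29 ± 0.23 on the 3 days.

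The share of probes detected on an array was between 32.82 and 40.27%, and at day 42 it was 32.82 to 36.79% in ligated and 35.88 to 39.66% in sham arrays. At day 6 the upper quartile of the scanner intensity varied more among ligated arrays (280 ± 86.7) than among sham arrays (268 ± 35.4, mean ± SD, n = 5 and 6). The median number of beads per probe was 30 to 42. Of all calls at day 1, 45.7% were rises under quantile normalisation and 83.9% under median scaling, which moved the median of all probes to 0.20. At day 42 the shares were 48.7% and 1.72%, with a median of -0.47, and array brightness as a covariate left 3 calls. At days 1 and 42 positions A to F of the BeadChip held the ligated arrays and G to L the sham ones, so that position and operation cannot be told apart, while at day 6 both operations were spread over the upper and the lower positions.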

How the data were processed

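Total RNA of 35 left ventricles was measured on Illumina BeadChips. Per the labels' protocols, RNA of tissue kept in RNAlater was isolated on RNeasy columns for fibrous tissue, amplified by TotalPrep and labelled with Cy3, and per the submitters' processing notes BeadStudio 3.3 and GenomeStudio were used. Per the file headers, each deposited table covers 1 day and gives, array by array, the scanner intensity averaged over beads, its detection p-value and a bead number (an other kind of value). The series matrix of the authors holds background-subtracted and normalised intensity, with the method not given in the sources used here, and served as an alternative. At day 6, 4 columns of 1 array match no sample and were not used here.

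From the deposited intensity, a normexp background correction (control values inferred through the detection p-values and an offset of 16), then quantile normalisation within the day and log2 were computed with limma 3.58.1 in R 4.3.3, so log2 levels are not the authors' values. Probes were tested with a detection p under 0.01 on at least 5 arrays of the day, by lmFit and eBayes, and called at 0.05 after Benjamini-Hochberg adjustment over every tested probe. Effects of 2 days were compared in 1 fit of 6 group means. Where a probe was detected on no array of a group, a bound is given, with each such array set to no less than the lowest detected level. The brightest probe stands for a gene outside the members. Correlations used 100000 permutations within groups. The rule for named genes takes all members, the gp130 cytokines, up to 4 genes of smallest p per day and list among those that passed, and the 6 genes most like Reg3b by each measure. Genes beyond it (markers, Il11ra1, Il10rb, Lcn2, Nnmt, Reg1a, Reg3a, Reg4, Tlr4) were named after their values were seen. The members and lists were chosen with earlier results of these data known. Promoter windows are from RefSeq's GRCr8 table.

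Groups and replicate numbers come from the labels. Bead arrays give no count depth, so precision is limited by how many arrays a group has. Alternatives were median scaling, no background correction, offset 50, the series matrix, no detection filter, a replicate block, BeadChip position (A to F or G to L) as a block at day 6, array brightness as a covariate, a trended robust prior, 1 fit over all arrays, and each array left out in turn. Scripts were tested on simulated data.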

Additional observations from a re-analysis of the deposited data

Results flagged for a closer look

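In 34 groups of arrays of the members, 3 held an array far from the rest, where chance alone marks about 1 in 20. Osmr in ligated replicate 1 at day 6 was at 7.97, the highest of 5, in the array that was also the one array with Socs3 above detection and that had the highest Lbp level of its day. Il6r in ligated replicate 5 at day 42 was at 5.81, the lowest of 6 and not detected. Lifr in sham replicate 2 at day 6 was at 6.26, the highest of 6 and the only sham array of that day with Lifr detected.

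The ligation effect differed between days for some genes in the fit of all 35 arrays, which called 0.812% of 8986 probes for day 6 minus day 1, 7.52% for day 42 minus day 6 and 8.62% for day 42 minus day 1. For members these contrasts are a description. Lbp was at 2.10 for day 6 minus day 1. For day 42 minus day 6, Reg3b was at -4.88, Lbp at -1.75 and Osmr at -1.39, and for day 42 minus day 1 Reg3b was at -2.70.

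Outside the members, the effects of Timp1 (-2.24 ± 0.52, limma, adjusted p = 0.00975), Cd14 (-2.01, adjusted p = 0.0216), Tlr2 (-1.77, adjusted p = 0.0279) and Jak2 (-1.40, adjusted p = 0.0146) were lower at day 42 than at day 6. Mcl1 (-0.81, adjusted p = 0.0231) and Hif1a (-0.72, adjusted p = 0.0483) were lower too, and Vegfa (1.34, adjusted p = 0.00444) was higher. Against day 1, day 42 was lower for Timp1 (-2.49, adjusted p = 0.00848), Cd14 (-1.68, adjusted p = 0.0421), Jak2 (-1.08, adjusted p = 0.0432) and the acute phase gene Orm1 (-1.03, adjusted p = 0.0240), and higher for Vegfa (1.03, adjusted p = 0.0246). Each day was hybridised on 1 BeadChip with both operations on it, and the ligated arrays of day 42 were dimmer than its sham arrays; the part of that gap in these contrasts was not tested.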

How the results depend on the processing

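The 294 alternative values of the members' differences kept within 1 SD of those given, apart from 4. Without background correction Lbp at day 6 was 1.40 and Osmr 0.55, and under median scaling Stat3 at day 42 was 0.070 and Il6r -0.39. For contrasts of days, no background correction gave 1.39 for Lbp (day 6 minus day 1), and -1.24 for Lbp and -0.66 for Osmr (day 42 minus day 6). Median scaling gave -0.61 for Stat3 and -0.50 for Il6r (day 42 minus day 6), and -0.24, -0.56 and -0.20 for Lbp, Stat3 and Il6r (day 42 minus day 1), with 4708 probes passing in place of 775. No correlation with Reg3b passed under its 9 alternatives.

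At day 1, brightness as a covariate gave 1199 probes in place of 2368 and 2 marker genes in place of 8. At day 6, against 958 probes, 8 route genes and 13 markers, median scaling gave 132, 2 and 2, no detection filter 562, 3 and 6, and 1 fit over all arrays 1634 probes. At day 42, against 1252, 7 and 4, median scaling gave 4710, 25 and 13 and brightness 3, 0 and 0. Leaving out 1 array gave 1576 to 2934 probes at day 1, 524 to 1189 at day 6 and 676 to 1772 at day 42. It gave 13 to 20, 3 to 12 and 5 to 10 route genes, and 6 to 12, 7 to 15 and 2 to 8 markers, on the 3 days. Contrasts of days ran from 29 to 132 (day 6 minus day 1), 390 to 923 (day 42 minus day 6) and 181 to 1157 probes (day 42 minus day 1).

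The sample titles do not say whether animals with the same replicate number were paired. Their deviations correlated between -0.27 and 0.34, which does not settle it. With a replicate block 315 probes, 3 route genes and 6 markers passed at day 6, and 2100 and 1204 probes at days 1 and 42. Of 641 alternative fits of named route genes, 546 kept the call, 94 lost it and 1 turned its sign (Jak1 at day 42 with brightness, 0.15). Why the counts moved was not tested. Dim probes (Osmr, Socs3, Lifr, Il6st) limit what can be measured, and 5 or 6 arrays a group limit the rest.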
